A study of Homo sapiens with 6 samples.

Results

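The axon guidance ligands and receptors are the Eph receptors and ephrins, the semaphorins with their plexin and neuropilin receptors, the Slits and Robos, and the netrins with DCC, NEO1 and the UNC5 receptors. Members were taken by gene symbol among the protein-coding genes of the count table, and 70 genes of 58735 rows, 19951 of them protein coding, met the rule. RNA-Seq counts of H1155 cells, a neuroendocrine large cell lung cancer line, were compared between 3 libraries labelled WT, from unedited cells, and 3 labelled GFI1KO. GFI1 is a zinc finger transcriptional repressor best known from blood cell development. The GFI1KO cells came from CRISPR/Cas9 deletion at the GFI1 promoter region followed by sorting of monoclonal clones, so a difference between the groups can also be a difference between clones, and the comparison cannot tell these apart. Both groups were grown in DMEM with 10% FBS and received no treatment. The labels do not say that the libraries came from separate cultures, so the p-values measure the spread between these libraries, which may be technical.

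Axon guidance cues steer growing nerve processes by attraction or repulsion, and the same proteins act in cell sorting, migration, vessel growth and cell adhesion in other tissues. Ephrins are membrane-bound and signal to Eph receptor tyrosine kinases on neighbouring cells, and Eph-bearing cells can also send signals back through ephrins. Secreted semaphorins bind neuropilins and signal through plexins, membrane-bound semaphorins mostly bind plexins directly, Slits signal through Robos, and netrins signal through DCC, NEO1 and UNC5 receptors. Lung tumors with neuroendocrine features express many neuronal genes, and members of these families are among those that neuronal and epithelial cells both use.

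Library totals lay between 14882914 and 17692882 counts. The correlation of log2 CPM was 0.991 to 0.993 within groups and 0.937 to 0.942 between groups. GFI1 itself had 153, 106 and 125 counts in WT and 174, 188 and 170 counts in GFI1KO (log2 fold change 0.31, SE 0.12, edgeR adjusted p = 0.027, 0.23 with the GC correction given below and 0.072 with DESeq2; exact permutation p = 0.1, the smallest that 3 against 3 libraries allow). GFI1 transcript was therefore not lower in the libraries labelled GFI1KO, and every direction given here rests on the labels. The study presents the GFI1 deletion in H1155 cells with immunoblots of GFI1 protein, which these RNA counts do not measure. Of 10 neuroendocrine markers, all were tested, 6 were higher and 4 lower. SYP, a synaptic vesicle protein, rose from a mean of 4221 normalized counts in WT to 9759 in GFI1KO. Of 6 epithelial markers, KRT8 was higher and EPCAM and CDH1 were lower, and KRT19 did not exceed 3 counts in any library. Among the other cell types, 5 of 7 fibroblast markers were tested, 2 were higher and 3 lower, and DCN was at 0 in every library. From WT to GFI1KO, COL3A1 rose from a mean of 2.49 to 139 normalized counts and PDGFRA from 1.08 to 14.8. PDGFRB fell from 141 to 14.8, and COL1A1 and COL1A2 were also lower. The fibroblast list summed to between 17.7 and 18.1 FPKM in WT and between 12.6 and 13.0 FPKM in GFI1KO. Most of this sum was COL1A2 (15.8 FPKM in WT and 10.8 FPKM in GFI1KO). The endothelial list of 5 genes summed to between 3.55 and 3.97 FPKM in WT and between 1.76 and 1.99 FPKM in GFI1KO, and none of 5 blood cell markers exceeded 7 counts. The part of these differences in the results below was not tested. In bulk RNA, fewer cells that express a gene and less of its RNA per cell cannot be told apart.

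Of the 70 members, 56 had enough counts to be tested and 14 did not. Between GFI1KO and WT, 29 tested members rose (51.8%), 18 fell (32.1%) and 9 passed no threshold, where a call is an edgeR adjusted p of at most 0.05. Over all 17514 tested genes, 36.5% were called higher and 35.9% lower, so nearly as many genes fell as rose in the whole table. Over the 13949 tested protein-coding genes the shares were 39.6% and 38.9%. The counts by family below are to be read against these shares. Separate ranges of normalized counts in the 2 groups were found for 47 members (83.9%), against 74.4% of all tested genes. Changes of at least 1 on the log2 scale were called in 17 members (30.4%), 10 higher and 7 lower. The share was 17.5% of all tested genes and 15.8% of the tested protein-coding genes. The median log2 fold change of the tested members was 0.22, and that of all tested genes was 0.00. Ligands were called higher more often than lower (18 against 6 of 28 tested, median 0.59), and receptors were called about as often in each direction (11 against 12 of 28 tested, median 0.07), but the difference between ligands and receptors was not tested.

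Fold changes across the table moved with base composition, which touches these counts directly. Spearman's rho between the log2 fold change and the GC content of the longest transcript was 0.574 over 17415 tested genes and 0.273 over the 56 members, across genes, which are not independent replicates. The members had a median GC content of 58.9%, against 48.2% for all tested genes. With GC content and gene length corrected for in each library, 17 members were called higher (30.4%) and 22 lower (39.3%). The shares were 32.5% and 28.3% of all tested genes, and 36.0% and 30.1% of the tested protein-coding genes. The median log2 fold change of the members was then 0.02. Of the ligands 10 were then higher and 8 lower (median 0.11), and of the receptors 7 were higher and 14 lower (median -0.22). The 34 members called in both fits, 17 higher and 17 lower, had the same direction in both, 12 of the members called higher lost the call, and 10 members had a fold change of the other sign. Whether the GC trend arose in the libraries or in the cells was not tested, and since it follows the groups the data cannot tell these apart. Members named below keep their call with the correction unless it is said otherwise. Family sums of FPKM and shares of them are given as measured, and a corrected sum takes the GFI1KO level of each tested member as its WT mean times its corrected fold change.

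**Figure D1:**
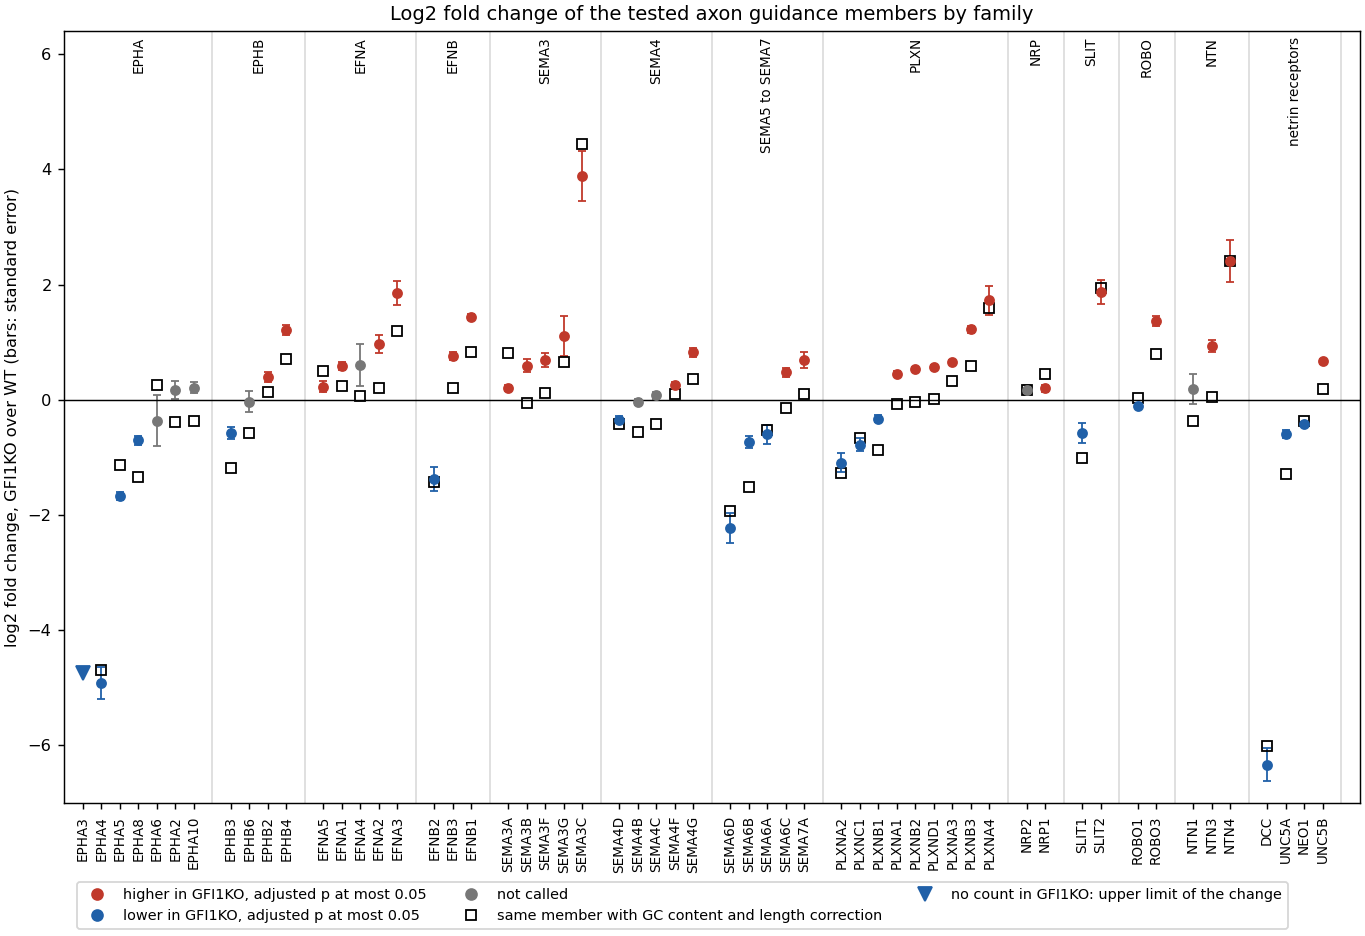
Log2 fold change of each tested member, GFI1KO over WT, by family, with standard errors from edgeR (n = 3 libraries per group). Filled points are coloured by call, open squares give the same member after the GC content and length correction, and the triangle marks EPHA3, which had no count in GFI1KO, at the upper limit of its change. The open squares lie below the points for most members with a high GC content, and the largest falls are DCC, EPHA4 and EPHA3.

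**Figure D2:**
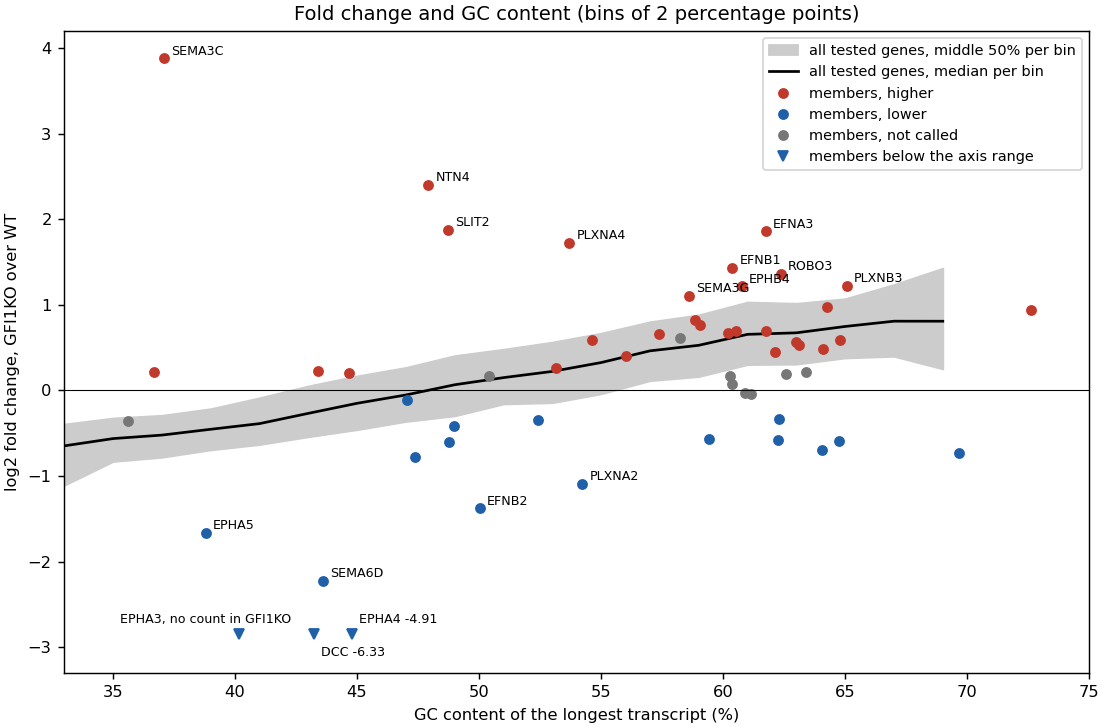
Log2 fold change against GC content of the longest transcript (%). The line and the band give the median and the middle 50% of all tested genes in bins of 2 percentage points, with at least 50 genes each, and points are tested members coloured by call, with triangles for those below the axis range. The median of all genes rises with GC content, while SEMA3C, NTN4 and SLIT2 lie far above it and EPHA5, SEMA6D, EFNB2, PLXNA2, EPHA3, EPHA4 and DCC far below it.

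The sequences just upstream of the start sites are shown for the 3 receptors that nearly disappeared in GFI1KO (EPHA3, EPHA4 and DCC) and for EFNB1, the most abundant ligand in GFI1KO, which rose. They are the 250 bases before each RefSeq start site in GRCh38.p14, in the direction of transcription. EPHA3 is at chr3:89107371-89107620 (plus strand), EPHA4 has start sites at chr2:221572305-221572554 (a) and chr2:221574203-221574452 (b, both minus strand), DCC is at chr18:52339947-52340196 (plus strand) and EFNB1 at chrX:68828771-68829020 (plus strand). Capitals mark AATC or its reverse complement GATT, the core of the GFI1 recognition sequence.
EPHA3: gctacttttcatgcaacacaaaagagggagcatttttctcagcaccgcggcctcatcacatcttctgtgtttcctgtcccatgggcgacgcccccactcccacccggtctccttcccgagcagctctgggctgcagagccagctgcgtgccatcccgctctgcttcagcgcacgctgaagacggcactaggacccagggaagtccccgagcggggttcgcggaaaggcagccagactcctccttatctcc
EPHA4 a: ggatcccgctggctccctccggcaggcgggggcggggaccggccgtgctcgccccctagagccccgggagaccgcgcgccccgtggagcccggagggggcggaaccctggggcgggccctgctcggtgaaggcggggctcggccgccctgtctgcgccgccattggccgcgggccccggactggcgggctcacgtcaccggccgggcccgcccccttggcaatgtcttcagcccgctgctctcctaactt
EPHA4 b: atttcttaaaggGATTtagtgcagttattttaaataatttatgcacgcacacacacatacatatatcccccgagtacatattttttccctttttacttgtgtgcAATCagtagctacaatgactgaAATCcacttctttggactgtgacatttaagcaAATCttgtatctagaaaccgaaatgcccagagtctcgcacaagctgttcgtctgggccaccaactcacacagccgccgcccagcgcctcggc
DCC: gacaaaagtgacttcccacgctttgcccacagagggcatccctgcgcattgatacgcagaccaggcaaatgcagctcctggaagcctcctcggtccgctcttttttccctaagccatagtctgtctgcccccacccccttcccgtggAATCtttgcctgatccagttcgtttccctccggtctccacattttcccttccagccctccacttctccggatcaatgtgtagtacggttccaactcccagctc
EFNB1: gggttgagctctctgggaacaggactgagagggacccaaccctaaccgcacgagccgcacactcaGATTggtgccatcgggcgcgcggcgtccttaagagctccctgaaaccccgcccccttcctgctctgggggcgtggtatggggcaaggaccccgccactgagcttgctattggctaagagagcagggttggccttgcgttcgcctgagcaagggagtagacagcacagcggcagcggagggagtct

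These windows held 0 matches for EPHA3, 0 and 4 for EPHA4, 1 for DCC and 1 for EFNB1. AATC, searched on both strands, was in 64.8% of all 35116 RefSeq promoter windows of this length. It was in 41 of the 60 members with a window (68.3%), in 13 of 24 members called higher (54.2%) and in 13 of 16 called lower (81.3%). The median GC content of the windows was 70.8% for members called higher, 63.2% for those called lower and 58.0% for all windows. The longer form AAATCA, which contains AATC, was in 2 of the 60 members (3.33%) and in 11.6% of all windows. A match to 4 or 6 letters is a description of the window and not a binding site.

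Among the A-type Eph receptors, tyrosine kinases that mainly bind ephrin-A ligands, 4 of the 7 tested genes fell and none rose. EPHA3 (chr3:89107524-89482134) had 87, 59 and 70 counts in the WT libraries and no count in any GFI1KO library. The WT mean was 76.0 ± 12.1 normalized counts (SD, n = 3), and against a floor of 3 counts in each GFI1KO library the gene was at least 26.7-fold lower in GFI1KO (edgeR adjusted p = 1.2e-12). EPHA4 (chr2:221418027-221574202), which also binds ephrin-B ligands, had normalized counts of 116, 143 and 124 in WT and 4.76, 2.84 and 4.71 in GFI1KO. All 3 GFI1KO libraries lay far below all WT libraries, and the log2 fold change was -4.91 (SE 0.27, adjusted p = 1.1e-14).

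EPHA5, the most abundant A-type receptor of WT cells (5.38 ± 0.08 FPKM), fell to 1.68 ± 0.09 FPKM. Its normalized counts were 882, 857 and 874 in WT and 289.7, 259 and 276 in GFI1KO, without overlap. The log2 fold change was -1.66 (SE 0.07, adjusted p = 1.1e-17), and -1.14 with the GC correction. EPHA8 had 388, 426 and 414 normalized counts in WT and 255, 239 and 261 in GFI1KO (log2 fold change -0.70, SE 0.08, -1.33 with the GC correction). As measured, EPHA8 passed EPHA5 as the leading A-type receptor, with 34.0% ± 0.7 of the summed FPKM of the family in GFI1KO against 30.8% ± 1.7 in WT, while EPHA5 went from 35.7% ± 1.6 to 20.2% ± 0.7. With the corrected fold changes this change of leader was lost, since EPHA5 stayed at 2.44 FPKM and EPHA8 at 1.84 FPKM. EPHA2 (86.1 ± 11.3 in WT, 97.3 ± 10.7 in GFI1KO) and EPHA10 (254 ± 37 in WT, 294 ± 17 in GFI1KO) passed no threshold as measured (adjusted p = 0.33 and 0.054) and were called lower with the GC correction (log2 fold change -0.38 and -0.37). The call of EPHA10 depended on the setting. It was called higher with limma-voom (adjusted p = 0.049) and with edgeR without a filter on low counts (adjusted p = 0.045). Without WT replicate 1, WT replicate 2 or GFI1KO replicate 2 it was also called higher (edgeR adjusted p = 0.049, 0.02 and 0.044). EPHA6 lay between 4.74 and 21.0 normalized counts and passed no threshold. Of the 50-base words of EPHA6 transcripts, 11.3% also occur in other genes, so its count is uncertain. The summed level of the family was 15.1 ± 0.5 FPKM in WT and 8.30 ± 0.54 FPKM in GFI1KO (7.01 with the correction).

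Among the B-type Eph receptors, which mainly bind ephrin-B ligands, EPHB4 rose and EPHB3 fell. EPHB4, the partner of ephrin-B2 in vessel formation, had normalized counts of 197, 178 and 217 in WT and 451, 476 and 451 in GFI1KO. Every GFI1KO library lay above every WT library, a log2 fold change of 1.22 (SE 0.09, adjusted p = 1.2e-12, 0.70 with the GC correction). EPHB3 had 232, 224 and 251 normalized counts in WT and 148, 174 and 152 in GFI1KO, with no overlap (log2 fold change -0.58, SE 0.11, -1.19 with the GC correction). The leading B-type receptor therefore went from EPHB3 (43.0% ± 0.5 of the family's summed FPKM) to EPHB4 (47.4% ± 2.0, and 46.5% with the corrected fold changes). EPHB2 rose from 276 ± 6 to 363 ± 22 normalized counts (log2 fold change 0.40) but was not called with the GC correction (adjusted p = 0.17), and EPHB6, whose kinase is inactive, had a log2 fold change of -0.03 (adjusted p = 0.89), called lower at -0.57 with the correction.

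The ephrins mostly rose. Of the GPI-anchored ephrin-A genes, 4 of 5 were called higher and none lower. EFNA3 had the largest rise, from 25.6, 37.6 and 21.0 normalized counts in WT to 92.4, 107 and 105 in GFI1KO. The groups lay far apart (log2 fold change 1.86, SE 0.21, adjusted p = 1.1e-08, 1.19 with the GC correction), but 41.4% of the 50-base words of EFNA3 transcripts also occur in the EFNA4-EFNA3 readthrough gene, so its count is uncertain. EFNA1, the most abundant ephrin-A, had 374, 389.7 and 346 normalized counts in WT and 564, 577 and 524 in GFI1KO. Every GFI1KO library was higher (log2 fold change 0.59, SE 0.07, 0.24 with the GC correction). EFNA2 rose from 62.5 ± 7.2 to 123 ± 5 normalized counts (log2 fold change 0.97, adjusted p = 3.1e-06) and lost its call with the GC correction (0.20, adjusted p = 0.25). EFNA5 was called higher by a small step (log2 fold change 0.23, adjusted p = 0.035, 0.50 with the GC correction) with overlapping groups. The call was lost when WT replicate 1, GFI1KO replicate 1 or GFI1KO replicate 2 was left out (adjusted p between 0.10 and 0.24). It was also lost with DESeq2 (adjusted p = 0.091) or upper-quartile factors (adjusted p = 0.083). EFNA4, with 10.7% of its words shared with the readthrough gene and a count that is therefore uncertain, passed no threshold.

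The 3 transmembrane ephrin-B genes split. EFNB1 (chrX:68828997-68842147), whose product signals in both directions between cells, had normalized counts of 751, 741 and 708 in WT and 2053, 2029.8 and 1862 in GFI1KO. All 3 GFI1KO libraries lay far above the WT libraries, and the log2 fold change was 1.43 (SE 0.05, adjusted p = 6.3e-19), 0.84 with the GC correction. EFNB3 rose from 713 ± 77 to 1207 ± 74 normalized counts (log2 fold change 0.76, adjusted p = 4.9e-11, 0.21 with the GC correction). EFNB2 went the other way, from 88.1, 72.0 and 108 in WT to 40.0, 29.4 and 33.9 in GFI1KO. The groups did not overlap (log2 fold change -1.38, SE 0.21, adjusted p = 1.4e-06), and 31.8% of its 50-base words are shared with an overlapping lncRNA locus, which leaves its count uncertain. EFNB1 and EFNB3 had like levels in WT (13.4 FPKM each), and EFNB1 was the most abundant ligand in GFI1KO at 35.9 ± 1.9 FPKM. The ephrin-B sum was 27.9 ± 1.6 FPKM in WT and 58.8 ± 2.3 FPKM in GFI1KO (40.0 with the correction).

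**Figure D3:**
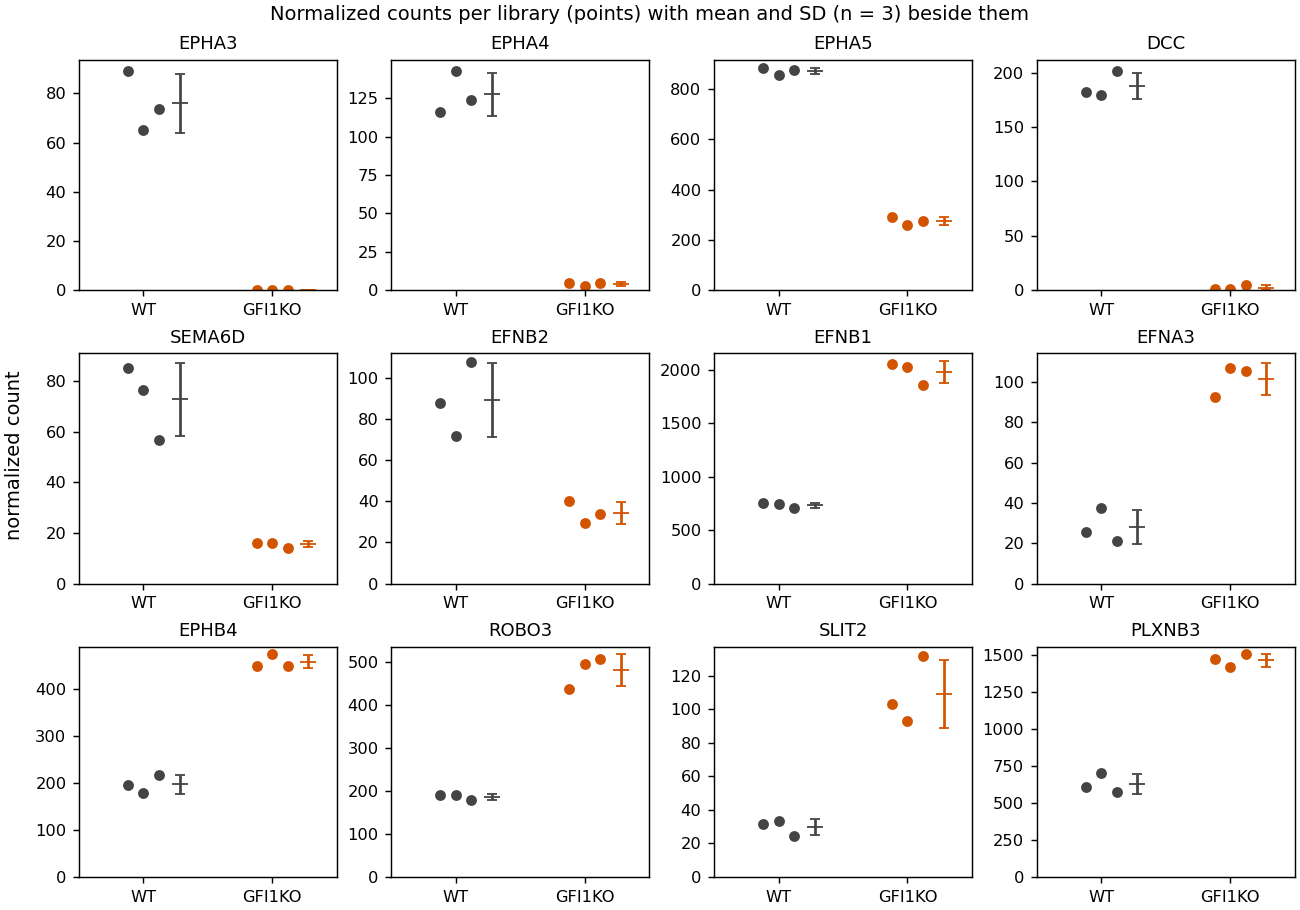
Normalized counts of 12 members in each of the 3 WT and 3 GFI1KO libraries (points), with the mean and SD of each group beside them; axes start at 0 and differ between panels. The groups of all 12 members do not overlap. EPHA3, EPHA4, EPHA5, DCC, SEMA6D and EFNB2 are lower in GFI1KO and the other 6 higher.

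All 5 tested class 3 semaphorins, the secreted ligands of neuropilins and plexins, were called higher. SEMA3C was nearly absent from WT, with 1.02, 4.43 and 2.10 normalized counts, and reached 35.3, 40.7 and 38.6 in GFI1KO. This was the largest rise of any member (log2 fold change 3.88, SE 0.43, adjusted p = 9.1e-09), from a WT mean of 0.0244 FPKM to 0.366 FPKM, and the log2 fold change was 4.51 without WT replicate 2. SEMA3A, the repellent ligand of NRP1 and the most abundant of the class, had 1109, 1052 and 1062 normalized counts in WT and 1286, 1253 and 1193 in GFI1KO. The libraries of the groups did not overlap, and the log2 fold change was 0.21 (SE 0.05, adjusted p = 0.00037), 0.82 with the GC correction. SEMA3B, SEMA3F and SEMA3G rose by 0.59, 0.69 and 1.11 on the log2 scale and were not called with the correction. SEMA3B changed sign under it (-0.05).

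Of the 5 tested class 4 semaphorins, which are membrane-bound ligands of B-type plexins among others, 2 rose and SEMA4D fell. SEMA4G had normalized counts of 305, 344 and 258 in WT and 520.3, 534 and 552 in GFI1KO. No WT library reached the GFI1KO values (log2 fold change 0.83, SE 0.08, adjusted p = 1.4e-09, 0.37 with the GC correction). Of the words of SEMA4G, 18.1% are shared with other genes, MRPL43 among them, so its count is uncertain. SEMA4D, the ligand of PLXNB1, had 860.1, 841 and 909 normalized counts in WT and 664, 714 and 682 in GFI1KO (log2 fold change -0.34, SE 0.06). SEMA4F, the most abundant of the class at 10.3 ± 0.3 FPKM in WT, had 1027, 1089 and 1039 normalized counts there and 1274, 1281 and 1227 in GFI1KO, a log2 fold change of 0.26 that was not called with the GC correction (0.10, adjusted p = 0.055). SEMA4B and SEMA4C passed no threshold (log2 fold change -0.04 and 0.08) and were called lower with the correction (-0.56 and -0.42).

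Classes 5 to 7 had a sum of 11.9 FPKM in both groups (7.86 in GFI1KO with the correction), but their makeup differed. SEMA6D, a membrane-bound ligand of A-type plexins, fell from 85.0, 76.4 and 56.7 normalized counts in WT to 16.2, 16.1 and 14.1 in GFI1KO. The groups lay far apart, at a log2 fold change of -2.22 (SE 0.25, adjusted p = 1.4e-08). SEMA6B and SEMA6A also fell (log2 fold change -0.73 and -0.60, -1.51 and -0.53 with the GC correction). SEMA6C had 385, 369 and 357 normalized counts in WT and 475, 528 and 545 in GFI1KO, a called rise (0.48, SE 0.07) that was gone with the GC correction (-0.15, adjusted p = 0.077). SEMA7A, a GPI-anchored ligand of PLXNC1 and integrins, rose from 159.7, 107 and 93.4 normalized counts in WT to 204, 178 and 202 in GFI1KO (log2 fold change 0.69, adjusted p = 0.00012), and was not called with the correction (0.11). SEMA6B held 42.4% ± 2.3 of the summed FPKM of these classes in WT, and SEMA6C held 44.8% ± 2.6 in GFI1KO (44.4% with the corrected fold changes).

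All 9 plexins, the signaling receptors of the semaphorins, were called, 6 higher and 3 lower. Of all tested genes, 36.5% were called higher and 35.9% lower. With the GC correction 3 plexins were called higher and 3 lower. PLXNB2, the most abundant plexin in both groups, had 3616, 3625 and 3419 normalized counts in WT and 5114, 5069 and 5287 in GFI1KO. The libraries were clearly apart (log2 fold change 0.54, SE 0.03, adjusted p = 2e-13), but with the GC correction PLXNB2 (-0.04), PLXNA1 (-0.08) and PLXND1 (0.01) were not called. PLXNA4, at low levels, rose from 23.6, 13.3 and 17.8 to 60.0, 66.3 and 56.5 normalized counts (log2 fold change 1.73, SE 0.26). The other called rises that stayed with the correction were PLXNB3 and PLXNA3. PLXNB3, a receptor of SEMA5A, rose by 1.22 on the log2 scale (0.59 with the correction). Of its words 18.3% are shared with SRPK3, so its count is uncertain. PLXNA3 rose by 0.66 (0.32 with the correction). PLXNA2 fell from 154, 158 and 99.7 normalized counts in WT to 63.8, 66.3 and 63.1 in GFI1KO, without overlap (log2 fold change -1.09, SE 0.17). PLXNC1, the receptor of SEMA7A, and PLXNB1, that of SEMA4D, fell by 0.78 and 0.33 on the log2 scale. With the GC correction their log2 fold changes were -0.66 and -0.87. The summed FPKM of the plexins was 78.6 ± 2.2 in WT and 113.8 ± 2.0 in GFI1KO as measured, but 80.4 in GFI1KO with the correction.

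Of the neuropilins, the ligand-binding partners of plexins, NRP1 had 594, 535 and 579 normalized counts in WT and 674, 605 and 686 in GFI1KO. NRP1 thus rose by a small step (log2 fold change 0.20, SE 0.07, adjusted p = 0.0082, 0.45 with the GC correction). It lost the call without WT replicate 2 (0.15, adjusted p = 0.056) or without GFI1KO replicate 3 (0.17, adjusted p = 0.052). NRP2 had a log2 fold change of 0.17 and passed no threshold (adjusted p = 0.079), but was called higher without WT replicate 2 (0.22, adjusted p = 0.04).

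Of the Slits, secreted ligands of the Robo receptors, SLIT2 and SLIT1 moved apart. SLIT2 rose from 31.7, 33.2 and 24.1 normalized counts in WT to 103, 92.9 and 132 in GFI1KO (log2 fold change 1.88, SE 0.20, adjusted p = 5.7e-09), and its value with the GC correction was 1.94. SLIT1, which shares a locus with the ARHGAP19-SLIT1 readthrough gene, fell from 94.2, 73.1 and 81.9 to 61.9, 51.2 and 54.6. Its log2 fold change was -0.57 (adjusted p = 0.0061), and -1.01 with the GC correction. SLIT1 held 74.8% ± 4.2 of the summed Slit FPKM in WT, and SLIT2 held 63.8% ± 4.1 in GFI1KO, at a sum of 0.74 ± 0.07 and 1.05 ± 0.14 FPKM.

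ROBO1 was the most abundant member in both groups, at 54.4 ± 0.8 FPKM in WT and 49.8 ± 0.6 FPKM in GFI1KO, where PLXNB2 followed at 42.6 ± 1.0 FPKM. Its normalized counts were 9603, 9863 and 9758 in WT and 9147, 8934 and 8976 in GFI1KO, a small called difference (log2 fold change -0.11, SE 0.03, adjusted p = 0.0023) that was not called with the GC correction (0.03). ROBO3, a Robo family member known for midline crossing of axons, rose from 190.4, 192 and 179 to 439, 498 and 509 normalized counts. The groups did not overlap (log2 fold change 1.36, SE 0.09, adjusted p = 1.3e-13, 0.81 with the GC correction). ROBO1 went from 97.1% ± 0.1 to 92.3% ± 0.6 of the summed Robo FPKM.

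Among the netrin receptors, DCC, the attractive receptor, nearly disappeared. DCC (chr18:52340172-53535903) had 178, 162 and 192 counts in WT and 1, 1 and 5 in GFI1KO, that is 188 ± 12 and 2.20 ± 2.17 normalized counts. The log2 fold change was -6.33 (SE 0.29, adjusted p = 1.7e-16), and -7.44 without GFI1KO replicate 3, which held 5 of these counts. NEO1, a DCC relative that also binds repulsive guidance molecules, fell from 3282, 3361 and 3166 normalized counts to 2542, 2416 and 2394 (log2 fold change -0.42, SE 0.04). UNC5B, a repulsive netrin receptor, rose from 1211, 1301 and 1266 to 2019, 1977 and 2019.6 (log2 fold change 0.67, SE 0.04, 0.19 with the GC correction), and UNC5A had a log2 fold change of -0.59 (-1.28 with the GC correction). The share of NEO1 in the family's summed FPKM went from 55.1% ± 0.4 to 44.2% ± 0.8 and that of UNC5B from 25.2% ± 0.9 to 43.0% ± 0.5. The sum itself was 44.4 ± 1.3 FPKM in WT and 40.9 ± 0.6 FPKM in GFI1KO (34.9 with the correction, with NEO1 at 54.1% of it).

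Of the netrins, NTN1, NTN4 and NTN5 stayed at low levels, with group means of at most 0.55 FPKM, and NTN3 reached 8.95 ± 0.94 FPKM in GFI1KO. NTN4, a netrin found in basement membranes, rose from 8.19, 4.43 and 8.40 normalized counts in WT to 51.5, 32.2 and 30.1 in GFI1KO, and all GFI1KO libraries lay above all WT libraries (log2 fold change 2.41, SE 0.37, adjusted p = 1.7e-06). NTN3, the most abundant netrin at 4.74 ± 0.48 FPKM in WT, had 137, 166 and 162 normalized counts there and 333, 278 and 279 in GFI1KO. This rise (log2 fold change 0.94, SE 0.11) was not called with the GC correction (0.05), and NTN3 has the highest GC content of the tested members, 72.6%. NTN1 passed no threshold, with a log2 fold change of 0.19 (adjusted p = 0.51). The netrin sum was 5.24 ± 0.52 FPKM in WT and 9.98 ± 1.15 FPKM in GFI1KO as measured, but 5.81 FPKM in GFI1KO with the correction.

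**Figure D4:**
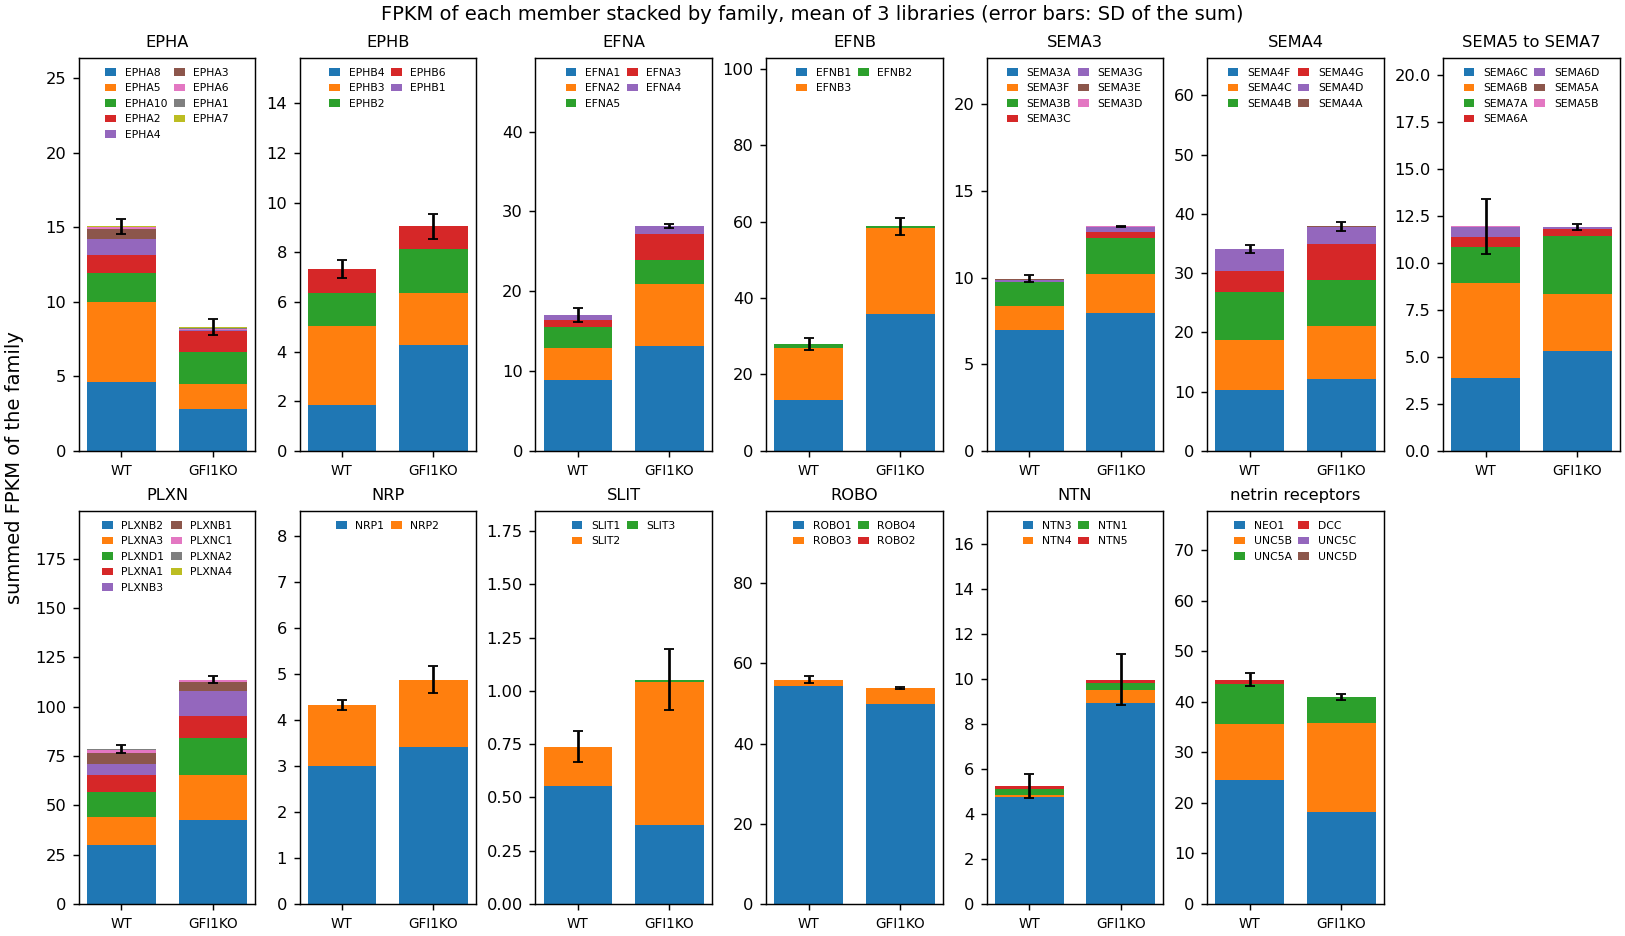
FPKM of each member stacked within its family, as the mean of the 3 WT and of the 3 GFI1KO libraries, with the SD of the family sum as error bars; axes differ between panels. As measured, the ephrin-B, ephrin-A, plexin and netrin sums are higher in GFI1KO and the A-type Eph sum is lower, but with the GC correction the plexin sum (80.4) and the netrin sum (5.81) lie close to WT. The leading member of the B-type Eph, Slit and class 5 to 7 semaphorin families differs between the groups, and that of the A-type Eph family does so only without the correction.

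The 14 members below the filter were at the edge of detection. ROBO2 had no count in any library, and the highest count of a single library was 1 for UNC5D, 3 for EPHB1, SEMA3D and ROBO4, 4 for SEMA5B, 5 for SLIT3, 7 for SEMA4A, 8 for EPHA1, 9 for EPHA7 and SEMA3E, 10 for SEMA5A, 12 for NTN5 and 23 for UNC5C. UNC5C, a repulsive netrin receptor, had 7, 6 and 6 counts in WT and 8, 11 and 23 in GFI1KO. A count of 0 allows up to 3 counts in a library of this depth, a limit that covers counting error only.

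Genes that act with these ligands and receptors were taken from a list of 59 co-receptors, other ligands and cytoplasmic partners, of which 53 were tested. Of these, 17 rose (32.1%) and 24 fell (45.3%), against 36.5% and 35.9% of all tested genes. The median log2 fold change of the 53 was -0.05. Cytoplasmic partners of netrin receptors were called lower in 8 of 10 and higher in 1 (median -0.75), and partners of plexins higher in 7 of 12 and lower in 1 (median 0.44). Of the partners of Eph receptors 3 rose and 6 fell of 11, of those of Robo 1 rose and 4 fell of 8, and of the other ligands and co-receptors 5 rose and 5 fell of 12. With the GC correction 13 of the 53 were called higher (24.5%) and 19 lower (35.8%), against 32.5% and 28.3% of all tested genes. For the netrin receptor partners 6 were then called lower and 1 higher (median -0.57). For the plexin partners 6 were called higher and 2 lower (median 0.17), and 3 of the 7 rises lost the call. Of the Eph receptor partners 3 were higher and 5 lower, of the Robo partners 0 and 2, and of the other ligands and co-receptors 3 and 4.

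MAP1B, a microtubule-binding protein of growing axons, fell from 24208 ± 505 to 10643 ± 257 normalized counts (log2 fold change -1.19, SE 0.03, adjusted p = 2.7e-21). TRIM9, a ubiquitin ligase that binds DCC, fell from 2243 ± 38 to 1247 ± 18 (-0.85), and CXCR4, the chemokine receptor of CXCL12, from 1241 ± 20 to 253 ± 30 (-2.29). L1CAM, an adhesion molecule and semaphorin co-receptor, rose from 7031 ± 101 to 18118 ± 255 (1.37, SE 0.03, adjusted p = 1.2e-22, 0.89 with the GC correction). GPC1, a heparan sulfate proteoglycan that binds Slits, rose from 1202 ± 25 to 3114 ± 70 (1.37, 0.70 with the GC correction). CHN2, a GTPase-activating protein of the chimaerin family that turns Rac off, rose from 56.6 ± 9.1 to 172 ± 18 (1.60). These 6 genes were picked as the 3 largest rises and 3 largest falls with a mean of at least 100 counts. They had no overlap between the groups, which this choice favors. Overlap was also absent in 42 of the 53 tested genes of the list (79.2%) and in 74.4% of all tested genes. The 6 genes kept their calls with the GC correction. Of the 41 called genes of the list, these 6 included, 27 kept the call in the same direction.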

How the data were processed

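RNA-Seq was measured in 6 libraries of H1155 cells, 3 labelled WT and 3 labelled GFI1KO. The authors deposited raw counts per gene, 1 value per gene and library, with the gene length, position and biotype of their annotation. According to the study's methods, mRNA was selected with poly-T beads, sequenced on a NovaSeq system, aligned to GRCh38/hg38 with Hisat2 and counted with featureCounts. The submitters' processing notes name hg38, Bowtie2 and HTSeq instead, and the annotation release, the strand setting and the rule for reads that match several genes are not given in the sources used here. The choice between these tools could move counts of genes that share sequence.

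Differential expression was tested over all genes with edgeR 4.0.16 in R 4.3.3 (TMM factors, filterByExpr, quasi-likelihood F test, Benjamini-Hochberg adjustment over all tested genes, adjusted p of at most 0.05, no fold change minimum), without pairing. Adjusted p-values in the report come from this test. The standard error is the size of the log2 fold change over the root of its F value. For normalized counts, each library was scaled by its TMM effective size to the mean effective size of all 6. FPKM, a per-length level, divides the counts by the gene length that the authors deposited and by the library total. GC content is that of the longest GENCODE release 44 transcript, and the correction fitted natural splines (5 degrees of freedom) of GC content and log length in each library and entered them as offsets. Counts are named uncertain for genes that share over 10% of their 50-base words with other genes. All 70 members overlapped their GENCODE gene. Promoter windows were read from a RefSeq table of GRCh38.p14, which matched 60 members, and the window nearest to the deposited gene start was used for motif counts.

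The members, lists and rules were chosen with earlier results of these data known. Per family, the largest called rise, the largest called fall and the most abundant member are given by library, and other members by fold change or range. EPHA4, EPHA5, EFNB3, UNC5A and the other members with values beyond this rule were picked with their values in view. Downstream genes are the 3 largest rises and 3 largest falls with a mean of at least 100 counts. Alternatives were DESeq2 1.42.0, limma-voom (limma 3.58.1), other normalizations, filters and thresholds, the replicate block, and each library left out. Family sums of FPKM with each tested member's GFI1KO level set to its WT mean times its GC-corrected fold change were added after seeing the data. Tables used pandas 2.3.3, numpy 2.4.6 and scipy 1.17.1 in Python 3.11.15, and plots used matplotlib 3.10.9.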

Additional observations from a re-analysis of the deposited data

How the results depend on the processing

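The calls of members changed little with the test, the normalization, the filter or the libraries. DESeq2, limma-voom, library size alone, and upper-quartile or median-of-ratios factors called 46 to 48 of the 56 tested members, and 46 or 47 of these were also called by edgeR with TMM, in the same direction. Without a filter on low counts 50 of 69 were called, and with at least 10 counts in every sample 41 of 48. Leaving out each library in turn gave 28 to 30 members higher and 18 lower. With the replicate number as a block, 29 members were higher and 18 lower, and the block changed no member's call. Same-numbered libraries did not deviate together (r from -0.0036 to 0.024, against -0.052 to 0.043 for other pairs), so the numbers were not taken to pair the libraries. Requiring a log2 fold change of at least 1 left 1792 genes higher and 1276 lower in all, 10 and 7 members, 3 Eph and ephrin genes higher, 4 semaphorin, plexin and neuropilin genes higher and 2 lower, 0 Slits and Robos lower, 1 netrin system gene higher and 1 lower, and 4 downstream genes in each direction, since small changes then no longer count. The GC content and length correction, alone and with the replicate block, gave 17 members higher, 7 of the semaphorin system higher and 1 Slit or Robo gene lower. Members whose fold change took the other sign under it, alone and with the block, were EPHA10 (-0.37 and -0.36), EPHA2 (-0.38 in both), EPHA6 (0.25 and 0.26), SEMA3B (-0.0507 and -0.0499), SEMA4C (-0.42 in both), SEMA6C (-0.15 in both), PLXNA1 (-0.078 in both), PLXNB2 (-0.043 in both), ROBO1 (0.027 in both) and NTN1 (-0.37 and -0.38). Over the 6 fits without 1 library, EPHA6 ranged from -0.68 to 0.043, EPHB6 from -0.23 to 0.15 and SEMA4B from -0.095 to 0.0065, and none of them was called where its sign turned. The summed FPKM ratios of the families moved by less than their spread on the TMM effective library size. With each tested member's GFI1KO level from its GC-corrected fold change, an alternative chosen after seeing the data, the ratio of GFI1KO to WT was 0.466 for EPHA, 0.890 for EPHB, 1.26 for EFNA, 1.43 for EFNB, 1.60 for SEMA3, 0.885 for SEMA4, 0.659 for SEMA5 to SEMA7, 1.02 for PLXN, 1.29 for NRP, 1.04 for ROBO, 1.11 for NTN and 0.787 for the netrin receptors, and only the Slit ratio moved by less than its spread. EPHB, SEMA4 and ROBO thereby crossed 1. Depth limits the members under about 10 counts, and 3 libraries a group cannot give an exact permutation p below 0.1.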
